A study of Homo sapiens with 6 samples.

Results

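H/ACA box snoRNAs are counted in these libraries under 111 entries, all those whose name starts with SNORA, out of 28846 small RNA entries in all and 451 entries of the snoRNA class. The members were chosen by name alone. Small RNA was sequenced from K562, an established line of human erythroleukemia cells. The 3 RUNX1 samples came from K562 cells transduced with a SIEW lentiviral vector that carries human RUNX1 and GFP, and the 3 control samples from cells that received the empty SIEW vector with GFP alone. Both groups were harvested after 10 days in culture, libraries were made from 1000 ng of total RNA with a kit for short RNAs, and the transductions were made independently 3 times. The promoter that drives the transgene is not given in the sources used here. The study asked which small RNAs respond to RUNX1, a transcription factor of megakaryocytic differentiation. RUNX1 mRNA is not measured in small RNA libraries, so its level could not be used to check the labels.

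H/ACA box snoRNAs are nucleolar RNAs that fold into hairpins joined by a hinge, the H box with the letters ANANNA, and end in a tail with an ACA close to the 3′ end. They bind dyskerin, NOP10, NHP2 and GAR1, and most guide dyskerin to uridines of ribosomal RNA that become pseudouridines. A few act in the cleavage of the ribosomal RNA precursor instead, among them the U17 RNAs SNORA73A and SNORA73B. Most human H/ACA box RNAs are cut out of introns of host genes, many of which encode ribosomal proteins or translation factors. Because the kit captures short RNAs, the counts are of short fragments of these RNAs.

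The entries at the ends of the range of change and the copies that moved apart are shown with their sequences, credited to GENCODE 29 on GRCh38. Each is written 5′ to 3′, and the capitals mark the ANANNA match nearest to the middle of the gene and an ACA in the last 6 bases. SNORA52, the entry with the largest rise, lies at chr11:811681-811814 on the plus strand in RPLP2, the gene of a ribosomal stalk protein, in an intron or an exon depending on the transcript. SNORA23, one of the largest falls, lies at chr11:9428773-9428954 on the plus strand in an intron of IPO7, a nuclear import receptor.
SNORA52: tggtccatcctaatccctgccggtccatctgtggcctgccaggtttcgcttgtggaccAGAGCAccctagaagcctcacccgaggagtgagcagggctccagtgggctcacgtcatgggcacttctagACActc
SNORA23: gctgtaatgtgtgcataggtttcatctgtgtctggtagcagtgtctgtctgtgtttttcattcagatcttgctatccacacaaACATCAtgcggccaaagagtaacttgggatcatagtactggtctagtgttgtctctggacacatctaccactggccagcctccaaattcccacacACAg

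The next set is shown because these copies changed in opposite directions. SNORA5A (chr7:45104349-45104482) and SNORA5C (chr7:45104906-45105042) lie on the minus strand in introns of TBRG4, which encodes a mitochondrial RNA-binding protein, and are 74.7% identical over 95 aligned bases. SNORA71A (chr20:38427309-38427442), SNORA71B (chr20:38425083-38425354), SNORA71C (chr20:38429670-38429803) and SNORA71D (chr20:38433865-38433998) lie on the minus strand in introns of SNHG17, a long non-coding RNA gene. The annotated SNORA71B is longer than its relatives, with 272 bases, and the stretch at chr20:38425203-38425330 is shown, which aligns to SNORA71D over 128 bases with 92.2% identity.
SNORA5A: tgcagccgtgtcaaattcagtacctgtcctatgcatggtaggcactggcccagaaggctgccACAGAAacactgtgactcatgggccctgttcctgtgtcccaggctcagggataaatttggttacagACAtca
SNORA5C: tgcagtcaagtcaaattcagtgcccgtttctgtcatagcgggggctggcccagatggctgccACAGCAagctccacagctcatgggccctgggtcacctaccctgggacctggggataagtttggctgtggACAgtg
SNORA71A: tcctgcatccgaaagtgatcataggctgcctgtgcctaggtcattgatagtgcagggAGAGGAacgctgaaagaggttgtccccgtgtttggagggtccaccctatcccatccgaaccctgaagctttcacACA
SNORA71B, stretch aligned to SNORA71D: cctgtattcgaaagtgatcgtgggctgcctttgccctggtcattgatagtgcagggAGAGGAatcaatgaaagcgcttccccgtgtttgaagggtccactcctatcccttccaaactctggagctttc
SNORA71C: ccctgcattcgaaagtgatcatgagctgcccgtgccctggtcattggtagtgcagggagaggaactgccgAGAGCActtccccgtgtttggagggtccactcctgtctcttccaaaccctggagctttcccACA
SNORA71D: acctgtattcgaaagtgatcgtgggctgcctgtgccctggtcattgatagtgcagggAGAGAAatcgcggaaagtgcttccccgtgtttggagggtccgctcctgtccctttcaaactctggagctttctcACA

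Of the 111 entries, 93 matched an annotated gene by symbol, 7 by an older symbol and 11 did not match a single gene, most of them family names without a letter. The ACA in the last 6 bases was present in 89 of the 100 matched genes (89%), against 4.68% of 278 C/D box (SNORD) genes and 8.29% of one transcript of each of 58463 annotated genes of at least 60 bases. An ANANNA in the middle 20 bases, searched on the RNA strand, was present in 82% of the matched genes and in 27.3% of either comparison set. Since the match was by name and these marks define the class, this describes the annotated genes and not the counted fragments. Among the older symbols, SNORA3 is annotated as SNORA3A, SNORA45 as SNORA3B, SNORA76 as SNORA50C, SNORA80 as SNORA80A and SNORA34 as SNORA2C. Some names cover several places in the genome. For SNORA1, SNORA3, SNORA4, SNORA11, SNORA25, SNORA31, SNORA32, SNORA38, SNORA41, SNORA42, SNORA51, SNORA63, SNORA72, SNORA75, SNORA76, SNORA77 and SNORA80, the supplement of the study places the name on a chromosome other than that of the annotated gene. The counts of these entries may hold reads of other loci, and their position and host gene are given below as those of the annotated gene only.

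Total counts ranged from 1618248 to 6193319 in the control and from 7918551 to 15245007 in the RUNX1 libraries, and control replicate 1 was the smallest. Other classes moved with the condition: the microRNA share was 81.8% ± 0.396 with the empty vector and 90.9% ± 1.23 with RUNX1, rRNA fragments 6.16% ± 0.281 and 2.26% ± 0.608, and C/D box snoRNAs 7.60% ± 0.128 and 4.09% ± 0.427 (SD, n = 3 each). The erythroid microRNAs miR-451a, miR-144-5p and miR-486-5p were present in every sample and together fell from 0.593% ± 0.0237 of the counts with the empty vector to 0.217% ± 0.0725 with RUNX1 (SD, n = 3 each), with log2 fold changes of -0.84, -0.58 and -0.80 after TMM scaling (adjusted p = 0.00132, 0.0394 and 0.0355 in the edgeR fit). The 3p arm of miR-144 was not among these markers. The study reports miR144 as an exception, for which q-RT-PCR and sequencing went in different directions. Of 5 microRNAs of other tissues, miR-205-5p and miR-1 rose in RUNX1 libraries, and the sum of the 5 went from 2 to 22 counts in control to 403 to 1019 counts with RUNX1, while miR-122-5p, miR-9-5p and miR-150-5p had too few counts for a test. The part of these shifts in the snoRNA values was not tested. Whether the different letters in the library names of the 2 groups mark separate preparations is not known, and if they do, preparation and condition cannot be told apart.

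H/ACA box entries took a larger part of the snoRNA counts upon RUNX1 over-expression. They held 3.45%, 3.87% and 3.48% of the counts of the snoRNA class in the empty vector samples 1, 2 and 3, against 8.10%, 6.80% and 7.73% in the 3 samples with RUNX1. The groups did not overlap, and the mean rose from 3.60% ± 0.233 to 7.54% ± 0.670 (SD, n = 3 each), which is 3.94 percentage points more (exact permutation test, two-sided, p = 0.1, which is the lowest value possible with 3 samples a group). In bulk samples like these, fewer cells of a type and less RNA per cell cannot be told apart. Counting error is small beside this difference, since the widest Wilson 95% interval of a sample was 0.165 percentage points. Such intervals cover counting error only, because reads without molecular identifiers are not independent molecules.

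Most of the rise of the share was lost without SNORA52 and SNORA31. The snoRNA class itself held 11.7%, 11.8% and 11.2% of all counts in the control samples. In the RUNX1 samples it held 6.28%, 6.33% and 7.34%, so the share was also taken of a smaller part of the library. SNORA52 held 3.53%, 3.78% and 3.20% of the H/ACA box counts in the control samples and 50.0%, 39.2% and 36.8% in the RUNX1 samples. Without SNORA52 the share of the snoRNA counts was 3.48% ± 0.217 with the empty vector and 4.50% ± 0.457 with RUNX1, and the difference shrank to 1.02 percentage points (exact permutation test, p = 0.1). Without SNORA31 as well, the shares were 3.0% ± 0.144 and 3.13% ± 0.327, the groups overlapped and the difference was 0.133 percentage points (exact permutation test, p = 0.7). Of all counts, H/ACA box entries took 0.416% ± 0.0350 with the empty vector and 0.502% ± 0.0686 with RUNX1 (exact permutation test, p = 0.2), and without SNORA52 the direction turned, with 0.402% ± 0.0326 with the empty vector and 0.292% ± 0.0581 with RUNX1 (p = 0.1 by the same exact test). The most abundant 5 entries held 40.1% ± 1.96 of the H/ACA box counts in control samples and 70.1% ± 3.44 with RUNX1. In control these were SNORA31, SNORA3, SNORA74A, SNORA71D and SNORA74, and with RUNX1 SNORA52, SNORA31, SNORA77, SNORA36B and SNORA74A. Per 100 bases of annotated gene, the highest control level was that of SNORA31 with 342 CPM, followed by SNORA3 with 282 CPM, and with RUNX1 SNORA52 led with 2006 CPM, ahead of SNORA31 with 892 CPM. CPM is the count relative to the library size scaled by TMM factors.

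At least 1 count was present for 92 entries, and for 82 of them in every sample. The other 19 entries were listed at 0 in all 6 samples, among them SNORA5B, SNORA17, SNORA44, SNORA47 and SNORA70C, and 3 counts, the floor used here, are at most 0.000185% of a library. Enough counts for a test were present for 74 entries. The 18 detected entries that were not tested had 1 to 55 counts in all samples together. SNORA37, with 55 counts, and SNORA35, with 50, were the most abundant of these.

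Upon RUNX1 over-expression, 46 of the 74 tested entries (62.2%) were altered, meaning a P-value under 0.05 from the quasi-likelihood test of edgeR and a change of 0.5 or more on the log2 scale in either direction, against 57.6% of the 947 small RNAs tested. Up-regulated were 21 entries (28.4%), against 28% of all tested small RNAs, and down-regulated were 25 (33.8%), against 29.6%. With the P-value adjusted by Benjamini-Hochberg over all 947, 42 entries were altered (56.8%, against 54.6%), 19 up and 23 down. In 58 entries (78.4%) the samples of the groups did not overlap, against 64.8% of all tested small RNAs. The shares of altered entries therefore lie near those of all small RNAs, and near the 56.9% of C/D box entries. The median log2 fold change was -0.24, against -0.06 over all tested small RNAs. The quartiles lay at -0.81 and 0.63, and 33 entries had a positive and 41 a negative log2 fold change.

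The balance of rises and falls depends on the scaling. With library size alone, 9 entries were up-regulated and 42 down-regulated, and the median over all tested small RNAs then lay at -0.76. With factors computed on microRNAs, 16 were up-regulated and 34 down-regulated. Other settings leaned to rises. RLE factors gave 25 up-regulated and 22 down-regulated entries, DESeq2 gave 23 and 22, and normalization within snoRNAs gave 27 and 22. RUNX1 replicate 3 also weighed on the count of rises, which was 29 without it. The wide spread of the members, from a log2 fold change of -3.75 to 4.55, is shown for 73 of the tested entries in the plot of changes.

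**Figure D1:**
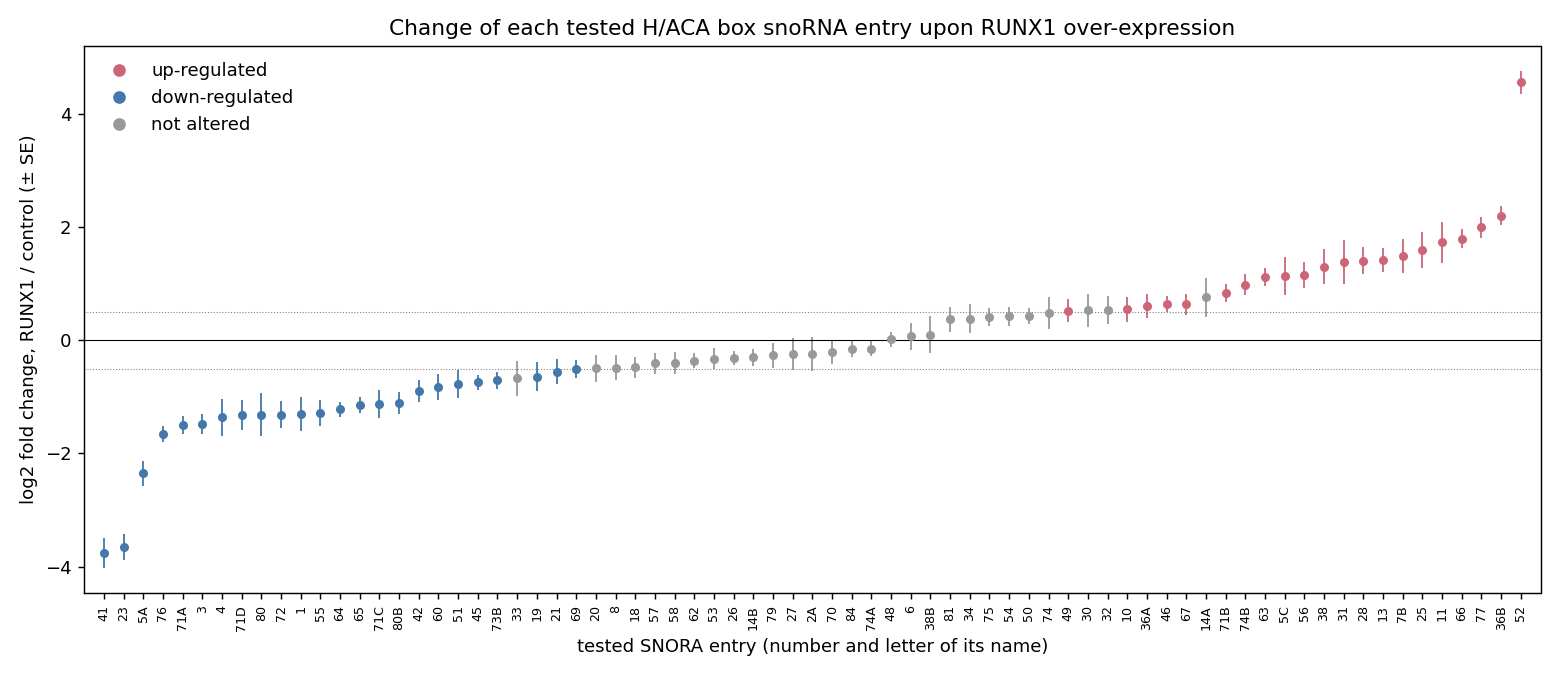
Log2 fold change of RUNX1 over control with its standard error for 73 of the 74 tested H/ACA box entries in order of size; colours give up-regulated, down-regulated and not altered entries, and dotted lines mark ±0.5. SNORA52 stands above all others at 4.55, and SNORA41 and SNORA23 lie below -3.

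SNORA52 rose further than any other H/ACA box entry. It had 110, 131 and 102 CPM in the control samples and 3358, 2295 and 2412 CPM in the RUNX1 samples. The lowest RUNX1 sample lay far above the highest control sample, and the log2 fold change was 4.55 (SE 0.204, adjusted p = 7.73e-07 from the quasi-likelihood test of edgeR after Benjamini-Hochberg adjustment, as for all adjusted p-values below).

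SNORA77, annotated in an intron of the calcium pump gene ATP2B4, and SNORA66, in an intron of the ribosomal protein gene RPL5, were next after SNORA52 and SNORA36B, which is described below with its microRNA. SNORA77 had 50.2, 73.6 and 64.8 CPM with the empty vector and 278, 276 and 204 CPM with RUNX1 (log2 fold change 1.99, SE 0.190, adjusted p = 2.83e-05). SNORA66 had 50.2, 37.2 and 37.4 CPM with the empty vector and 160, 129 and 138 CPM with RUNX1 (log2 fold change 1.8, SE 0.166, adjusted p = 2.47e-05). In both the groups were apart by a wide margin and the replicates close to each other.

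SNORA31, annotated in TPT1, which encodes the translationally controlled tumor protein, was abundant and variable. It had 284, 556 and 495 CPM with the empty vector and 618, 994 and 1867 CPM with RUNX1. The groups did not overlap, but RUNX1 replicate 3 lay at 3 times the level of RUNX1 replicate 1, and the log2 fold change was 1.38 (SE 0.385, adjusted p = 0.0128). With library size alone it was 0.72 and no longer altered.

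SNORA13, annotated in the long non-coding RNA gene EPB41L4A-AS1, had 19.6, 17.5 and 18.0 CPM with the empty vector and 57.3, 53.3 and 34.9 CPM with RUNX1, a log2 fold change of 1.41 (SE 0.207, adjusted p = 0.000361). The remaining large rises were of entries with fewer counts. SNORA11, in MAGED2, went from 0.745 to 0.957 CPM in control to 1.90 to 3.20 CPM with RUNX1, a log2 fold change of 1.73 (adjusted p = 0.00277). SNORA25, SNORA7B and SNORA28 had log2 fold changes of 1.59, 1.48 and 1.41 at 2.37 to 5.46 CPM in control samples, all without overlap between the groups. SNORA7B differs from SNORA7A in few positions (98.6% identity over 139 bases), and SNORA7A was listed with 15 counts in all, so the split of reads between them is uncertain.

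Beyond these, SNORA56, SNORA63, SNORA38 and SNORA5C rose with log2 fold changes of 1.12 to 1.30, and the overlap of the groups in SNORA5C came from RUNX1 replicate 3. SNORA71B and SNORA74B rose with log2 fold changes of 0.83 and 0.98. Near the threshold were SNORA49, SNORA10, SNORA36A, SNORA67 and SNORA46, at 0.52 to 0.64. The calls of 8 entries close to the threshold were lost when a single sample was left out, RUNX1 replicate 1 ending all of them but that of SNORA73B. Over the 6 ways to leave out a sample, the log2 fold changes came as near to 0 as 0.48 in SNORA10, 0.49 in SNORA49 and SNORA67, 0.502 in SNORA36A, -0.48 in SNORA19 and -0.38 in SNORA21 and SNORA69. With library size alone, SNORA49, SNORA10, SNORA36A, SNORA67 and SNORA46 had negative log2 fold changes, from -0.06 to -0.19, and none was altered, and SNORA71B had 0.12.

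The largest falls were steeper than any rise except that of SNORA52. SNORA41, annotated in the elongation factor gene EEF1B2, had 24.4, 20.7 and 21.7 CPM with the empty vector and 1.13, 1.60 and 2.33 CPM with RUNX1, a log2 fold change of -3.75 (SE 0.266, adjusted p = 4.68e-06). SNORA23 had 44.5, 47.5 and 48.5 CPM with the empty vector and 3.12, 2.88 and 5.25 CPM with RUNX1 (log2 fold change -3.66, SE 0.229, adjusted p = 2.64e-06). In both the control replicates were close together and far above every RUNX1 sample. The annotated host of SNORA41 has a role in translation, as that of SNORA52 does. The supplement places the name SNORA41 on another chromosome, so its host is uncertain, and a link between host and change was not tested.

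SNORA3, the second most abundant entry of the control samples, fell from 400, 376 and 323 CPM to 153, 140 and 102 CPM (log2 fold change -1.48, SE 0.178, adjusted p = 0.000112). SNORA76 fell from 94.2, 95.3 and 96.5 CPM to 34.1, 27.5 and 29.1 CPM (log2 fold change -1.65, SE 0.138, adjusted p = 1.37e-05). The groups were apart in both, and the control replicates of SNORA76 differed by less than 3 CPM. Other entries fell somewhat less: SNORA4, SNORA80, SNORA72, SNORA1, SNORA55, SNORA64, SNORA65, SNORA71C and SNORA80B had log2 fold changes of -1.36 to -1.11, all without overlap between the groups. All 25 falling entries, and 19 of the 21 rising ones, had samples that did not overlap. The call itself makes this likely, so it adds no separate support to the calls. Over all 947 tested small RNAs, altered or not, 64.8% had samples that did not overlap.

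SNORA73B, a U17 RNA of the cleavage of the ribosomal RNA precursor, fell less. It had 79.4, 86.9 and 79.3 CPM with the empty vector and 55.8, 53.8 and 40.6 CPM with RUNX1 (log2 fold change -0.71, SE 0.156, adjusted p = 0.00356). Without RUNX1 replicate 3 the log2 fold change was -0.49, just inside the threshold, so that sample decides the call. Its relative under the bare family name, SNORA73, had 13 counts in all samples together and was not tested.

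Several abundant entries showed small differences. SNORA74A had 202, 209 and 191 CPM with the empty vector and 177, 169 and 198 CPM with RUNX1, a log2 fold change of -0.15 (SE 0.127, adjusted p = 0.346). SNORA48, annotated in the translation initiation factor gene EIF4A1, had 71.3, 86.5 and 70.7 CPM with the empty vector and 81.9, 73.1 and 76.3 CPM with RUNX1, a log2 fold change of 0.01 (SE 0.138, adjusted p = 0.933). The groups overlapped in both, but these values hold for TMM scaling, and with library size alone the log2 fold changes were -0.84 and -0.69. SNORA69 had 125, 88.0 and 115 CPM with the empty vector and 73.1, 73.3 and 83.9 CPM with RUNX1, a log2 fold change of -0.50 at the edge of the threshold.

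**Figure D2:**
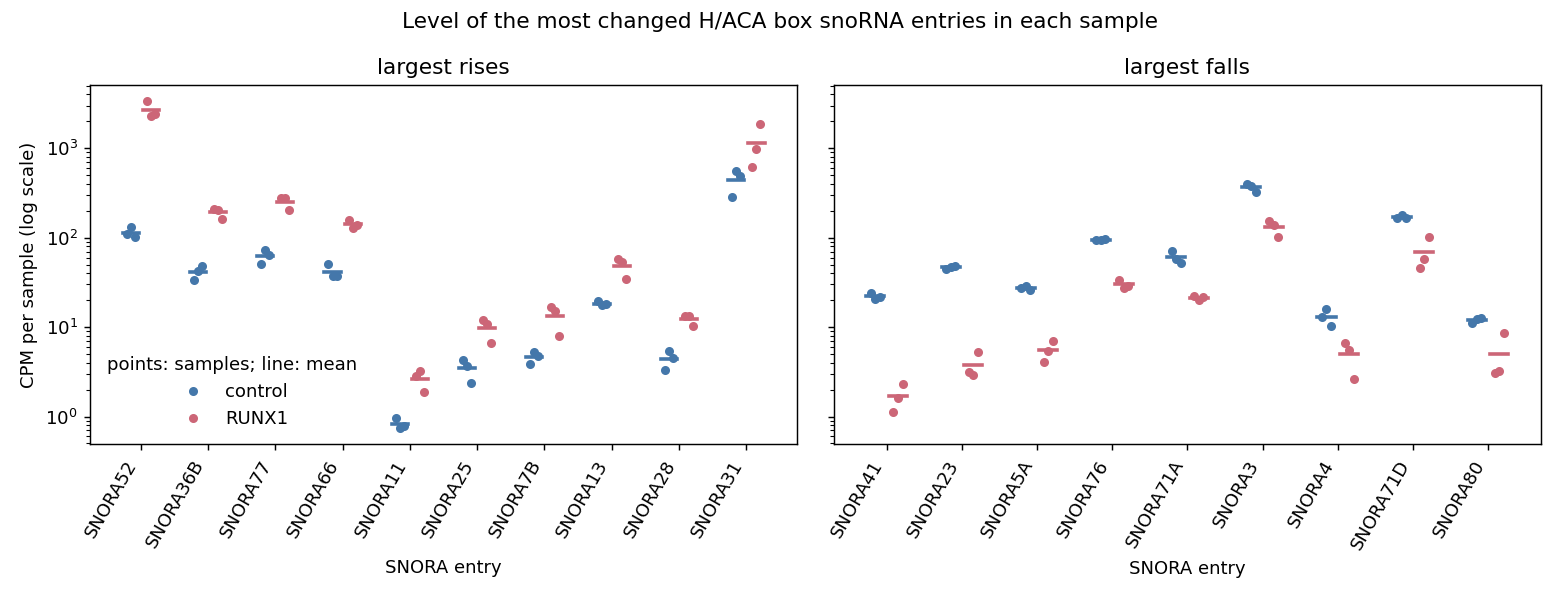
CPM in each sample, on a log scale, of the 10 entries with the largest rise (left) and 9 of the 10 with the largest fall (right) with an adjusted p-value under 0.05 and no overlap between the groups; points are samples, blue control and red RUNX1, and lines are means. SNORA52 spans 102 to 3358 CPM, while SNORA31 has the widest spread among RUNX1 samples in absolute terms, from 618 to 1867 CPM.

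Copies of a family did not always move together. Copies were entries whose listed names share the SNORA number. Entries that share a number only by their annotated symbols were not paired. Among these are SNORA3 with SNORA45, SNORA34 with SNORA2A, and SNORA42, annotated as SNORA80E, with SNORA80. The balance was read as the log2 ratio of the counts of both copies within a sample, with 0.5 count added, which needs no scaling between libraries. Of 10 pairs of tested copies, 6 had ratios that did not overlap between the groups, each with p = 0.1 by the exact permutation test. This is 60%, against 71.0% of all 2701 pairs of tested H/ACA box entries, so the count alone says nothing particular about copies. No pair could reach 0.05 with 3 samples against 3.

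The pair in TBRG4 moved furthest apart. SNORA5A fell from 27.3, 29.2 and 26.3 CPM to 4.08, 5.44 and 7.01 CPM (log2 fold change -2.35, SE 0.219), while SNORA5C had 13.4, 12.3 and 10.3 CPM with the empty vector and 34.2, 30.2 and 13.0 CPM with RUNX1 (log2 fold change 1.14, SE 0.336). The log2 ratio of SNORA5C to SNORA5A was -1.01, -1.24 and -1.35 with the empty vector and 3.05, 2.46 and 0.884 with RUNX1. SNORA5A was the more abundant copy in every control sample and SNORA5C in every RUNX1 sample, a shift of 3.34 on the log2 scale.

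In SNHG17, SNORA71B went against its 3 relatives. SNORA71B had 56.0, 63.8 and 61.1 CPM with the empty vector and 127, 102 and 93.9 CPM with RUNX1. SNORA71D had 165, 181 and 166 CPM with the empty vector and 46.4, 57.4 and 101 CPM with RUNX1 (log2 fold change -1.32, SE 0.261). SNORA71A (-1.49) and SNORA71C (-1.13) fell with it. The log2 ratio of SNORA71D to SNORA71B went from 1.498 ± 0.0597 in control to -0.72 ± 0.785 with RUNX1 (SD, n = 3 each), a shift of -2.22, whereas its ratios to SNORA71A and SNORA71C shifted by 0.10 and -0.27, with overlapping groups. The last shift was -0.0047 without RUNX1 replicate 1 and -0.59 without RUNX1 replicate 3. Since the SNORA71B stretch and SNORA71D shown above share 118 of 128 aligned bases and the treatment of reads that match several genes is not given in the sources used here, the split of reads between them is uncertain.

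None of the other pairs held an up-regulated and a down-regulated copy. SNORA36B gained on SNORA36A by 1.68 and SNORA38 on SNORA38B by 1.27. The counts of both SNORA36 entries nearly equalled those of microRNA arms annotated in them, as given below. SNORA74A lost to SNORA74B by 1.10 and SNORA14B to SNORA14A by 1.07. SNORA80 and SNORA80B, 93.2% identical over 133 aligned bases, both fell, and their ratio shifted by -0.33 with overlapping groups. SNORA74A and the entry SNORA74, which has no letter and matched no single gene, also overlapped, with a shift of -0.54 that was -0.23 without RUNX1 replicate 1 and -0.96 without RUNX1 replicate 3.

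Entries annotated in the same host gene could be compared as well. The annotation places 26 tested entries in 10 hosts with at least 2 of them, and 5 of these hosts held an up-regulated and a down-regulated entry: TBRG4, SNHG17, EIF4A2, RPS2 and TAF1D. This count rests on the scaling: with library size alone only TAF1D held both, since the log2 fold changes of SNORA5C (0.40), SNORA63 (0.41), SNORA71B (0.12) and SNORA10 (-0.16) were then below the threshold for a rise. With factors computed on microRNAs, or without control replicate 1 or 3 or RUNX1 replicate 1 or 2, RPS2 no longer held both. With a minimum of 10 counts in every sample, TAF1D no longer held both. SNORA25 and SNORA1 had 9 and 6 counts in control replicate 1 and were left out by that filter. Of all tested H/ACA box entries, 28.4% were up-regulated and 33.8% down-regulated, so hosts that hold both calls can arise by chance. The number of such hosts to be expected was not computed, and the count alone says nothing particular about hosts. In EIF4A2 (SNORA63 and SNORA4) and TAF1D (SNORA25 and SNORA1), both calls come from names that the supplement places on another chromosome. Reads of these entries may come from other loci, so their hosts are uncertain. In EIF4A2, an RNA helicase of translation initiation, SNORA63 rose from 20.1, 22.1 and 16.7 CPM to 44.9, 43.8 and 38.7 CPM, SNORA4 fell from 12.9, 15.8 and 10.4 CPM to 6.68, 5.60 and 2.63 CPM, and SNORA81 had a log2 fold change of 0.37 and did not pass the test. In RPS2, a ribosomal protein gene, SNORA64 fell from 70.3, 84.5 and 76.2 CPM to 31.8, 33.1 and 34.7 CPM, and SNORA10 had 8.13, 10.3 and 8.16 CPM with the empty vector and 14.8, 14.6 and 10.1 CPM with RUNX1, with overlapping groups. The log2 ratio of SNORA64 to SNORA10 was 3.11 ± 0.0957 with the empty vector and 1.36 ± 0.369 with RUNX1 (SD, n = 3 each).

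TAF1D, a factor of RNA polymerase I transcription, holds 5 tested entries. SNORA25 rose (log2 fold change 1.59), SNORA1 fell (-1.30), and SNORA32 (0.54), SNORA18 (-0.48) and SNORA8 (-0.48) were not altered. In 2 hosts the altered entries shared a direction. SNORA3 and SNORA45 both fell in RPL27A, by 1.48 and 0.74 on the log2 scale. The host of SNORA3, like that of SNORA32, is uncertain, since the supplement places both names on another chromosome. SNORA36A and SNORA56 both rose in DKC1, the gene of dyskerin itself, by 0.60 and 1.15. The counts of SNORA36A nearly equalled those of microRNA arms annotated in it, as given below. Over all 16 pairs within a host, 10 had log2 ratios that did not overlap between the groups (exact permutation test, p = 0.1 each), which is 62.5% and below the 71.0% of all pairs of tested H/ACA box entries. Levels of the host transcripts were not analysed here.

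By class of host, 8 of 27 tested entries in hosts listed as translation genes (29.6%) rose and 11 (40.7%) fell, against 28% and 29.6% of all tested small RNAs, with a median log2 fold change of -0.25. Of the 27, SNORA7B lies in a pseudogene, RPL32P3, and SNORA54 in NAP1L4, which encodes a nucleosome assembly protein and not a translation factor. Of 37 entries in other protein-coding hosts, 11 (29.7%) rose and 9 (24.3%) fell, with a median of -0.15. Hosts were classed by symbol, so PABPC4 (SNORA55), MRPL3 (SNORA58) and IARS (SNORA84), which also have roles in translation, were counted among these 37. Of 8 entries in long non-coding hosts, 2 rose (SNORA13 and SNORA71B) and 5 fell (SNORA76, SNORA71A, SNORA71C, SNORA71D and SNORA60), with a median of -0.97, and 4 of the 8 lie in SNHG17. The median over all tested small RNAs was -0.06, and the differences between host classes were not tested.

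Of the H/ACA box genes, 5 overlap a microRNA gene on the same strand, of which 1, MIR664B, lies wholly inside, and their counts can be set beside those of the microRNA arms. SNORA36B (chr1:220200546-220200676, minus strand, in an intron of RAB3GAP2) overlaps MIR664A over 74 bases, and SNORA36A (chrX:154768528-154768659, plus strand, in DKC1) overlaps MIR664B over 61 bases. Their sequences follow, with the microRNA arms of RefSeq in capitals, the 5p arm first.
SNORA36B: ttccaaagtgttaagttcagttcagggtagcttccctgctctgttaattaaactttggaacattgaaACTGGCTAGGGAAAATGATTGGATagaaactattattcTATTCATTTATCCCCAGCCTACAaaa
SNORA36A: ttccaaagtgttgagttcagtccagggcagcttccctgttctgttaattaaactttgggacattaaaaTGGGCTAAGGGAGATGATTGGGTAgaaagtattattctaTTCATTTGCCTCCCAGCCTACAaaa

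SNORA36B had 71, 343 and 365 counts with the empty vector and 2441, 1285 and 1115 counts with RUNX1, and both arms of miR-664a together had 69, 326 and 354 counts and 2328, 1230 and 1068 counts. The arms thus amounted to 95.04% to 97.2% of the counts of the entry in every sample. In CPM, SNORA36B went from 34.0, 42.6 and 48.1 to 212, 206 and 163 (log2 fold change 2.20, SE 0.176, adjusted p = 1.01e-05), and miR-664a-3p had the same log2 fold change, 2.20. Whether the same reads were counted under both entries is not given in the sources used here.

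SNORA36A had few counts, 26, 69 and 62 with the empty vector and 183, 83 and 89 with RUNX1, and the arms of miR-664b amounted to 91.3% to 100% of them. Under its modest log2 fold change of 0.60 (SE 0.212, adjusted p = 0.0350) the counts of the arms moved in opposite directions. miR-664b-3p had 2, 1 and 4 counts with the empty vector and 167, 70 and 76 counts with RUNX1 (log2 fold change 4.88, SE 0.419, adjusted p = 1.58e-05). miR-664b-5p had 23, 62 and 58 counts with the empty vector and 16, 12 and 13 counts with RUNX1 (log2 fold change -2.30, SE 0.270, adjusted p = 9.33e-05). The 3p arm made up 8.0%, 1.59% and 6.45% of the counts of both arms with the empty vector and 91.3%, 85.4% and 85.4% with RUNX1. In SNORA36B the 3p arm made up 84.0% to 88.7% in all 6 samples. The sequence of miR-664b-3p also occurs unchanged in SNORA36C, which is 97.0% identical to SNORA36A over 132 bases. SNORA36C was listed with 24 counts in all, and the treatment of reads that match several genes is not given. The origin of the miR-664b-3p reads, and so the switch of arms within SNORA36A, is therefore uncertain.

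In the other 3 entries of this kind the arm held a smaller part. miR-1248 amounted to 8.43%, 16.4% and 18.8% of the counts of SNORA81 with the empty vector and to 59.9%, 48.0% and 26.6% with RUNX1, and it rose (log2 fold change 2.03, SE 0.491, adjusted p = 0.00604) while SNORA81 did not pass the test. miR-3651 amounted to 54.3% to 75.4% of the counts of SNORA84, and miR-1291 to 18.3% to 31.9% of those of SNORA34, and none of these 4 entries was altered.

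**Figure D3:**
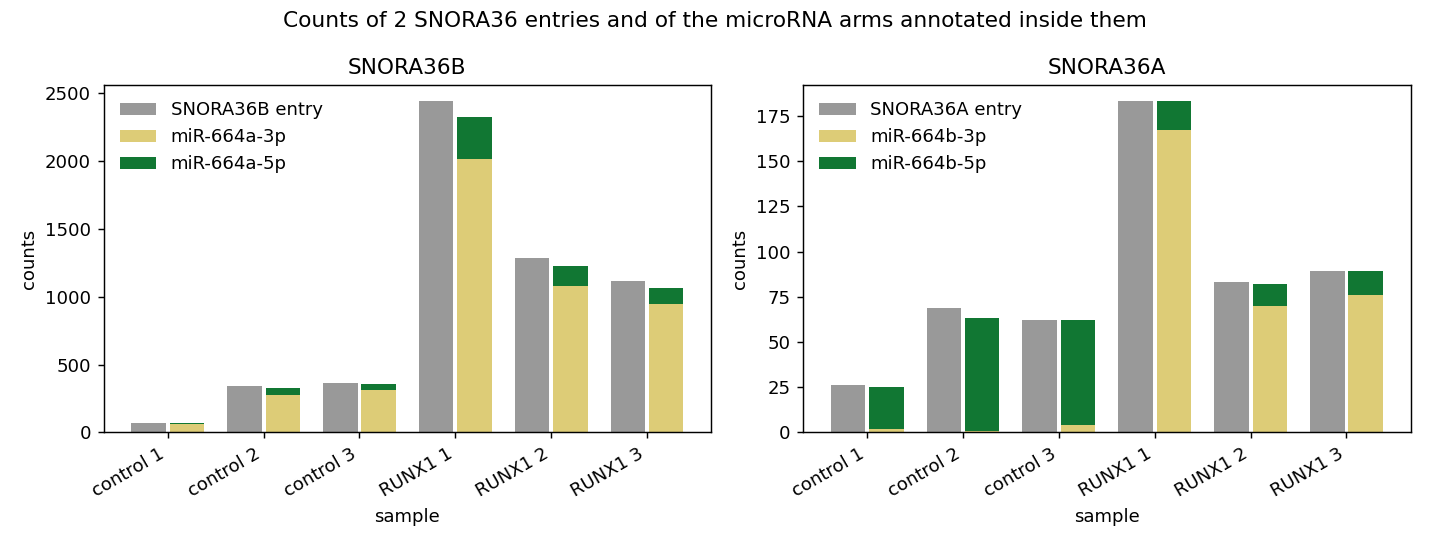
Counts per sample of SNORA36B and SNORA36A (grey bars) beside the stacked counts of the microRNA arms annotated inside them (3p yellow, 5p green). The stacked arms nearly reach the grey bar in every sample, and in SNORA36A the larger arm is 5p in the 3 control samples and 3p in the 3 RUNX1 samples. The 3p sequence of SNORA36A also occurs in SNORA36C.

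Sequence features the choice of members did not use varied little with the change. Over the 72 tested entries with a matched gene, Spearman's correlation of the log2 fold change was -0.085 with gene length and -0.089 with GC content, a description across entries that share the same 6 libraries. The median GC content was 48.5% in rising, 52.2% in falling and 46.3% in other tested entries. Of these 72 entries, 25 had at least 1 other gene with 90% or higher identity among the 992 annotated snoRNA and scaRNA genes compared, and their counts depend on how reads that match several genes were assigned.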

How the data were processed

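Small RNA libraries of 3 control and 3 RUNX1 samples, from 3 independent transductions each, were analysed. Replicate numbers were taken from the sample titles, since RUNX1 replicates 1 and 2 share 1 number in their library names. The authors demultiplexed the reads with CASAVA 1.8.2 and used the OASIS platform to count them per annotated small RNA. The files deposited by the authors hold raw counts, which are whole numbers. Per the labels the build was hg19, and the aligner, the annotation and the treatment of reads matching several loci are not given in the sources used here. The lines of each file that name no small RNA held 0 counts.

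Counts were analysed in R 4.3.3 with edgeR 4.0.16. Of all 28846 entries, the 947 that passed filterByExpr (minimum count 10, minimum total count 15) were fitted together, whatever their class. They were normalized by TMM (mean factor 1.28 in control, 0.786 in RUNX1 samples). The quasi-likelihood test was two-sided, with condition as the only term. An entry was called altered at a P-value under 0.05 when it changed by 0.5 or more on the log2 scale, the thresholds of the study. DESeq2 1.42.0 and the other alternatives are given in the closing section. The edgeR fit was tested on simulated data in which the classes were not made to shift between the groups. That test therefore does not bear on the choice of scaling. Shares and ratios were compared by exact two-sided permutation tests.

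Names were matched to GENCODE 29 on GRCh38 by symbol or by an older symbol in the RefSeq gene table, never by coordinates. Near-identical genes were found with BLAST 2.17.0. Entries were named by rule: the 10 most abundant, the 10 largest rises and the 10 largest falls with an adjusted P-value under 0.05 and no overlap between the groups, tested copies of a family, entries overlapping a microRNA gene, and entries sharing a host with a large change. Other entries are named where a count is spelled out, and were chosen after their values were seen, as were the comparison within hosts and the removal of SNORA31 from the shares. Members and lists were chosen with earlier results of these data known. The sequence of genes on chromosome 8, and 1 of the 10 largest falls, are not reported here.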

Additional observations from a re-analysis of the deposited data

How the results depend on the processing

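The altered count lay between 31 (log2 fold change of at least 1) and 54 (no count filter) in every alternative, including DESeq2, RLE factors, normalization within snoRNAs, a minimum of 10 counts in every sample and families summed. DESeq2 called 45 entries, 43 of them among the 46. Leaving out each replicate in turn gave 43 to 53 altered, 18 to 29 up-regulated and 24 to 26 down-regulated entries. With library size only, 9 were up-regulated and 42 down-regulated, and the log2 fold changes turned to -0.0786 for SNORA67, -0.69 for SNORA48, -0.11 for SNORA36A, -0.19 for SNORA49, -0.0617 for SNORA46 and -0.16 for SNORA10. The 20 largest changes kept direction and call in 275 of 276 alternative values, and the exception was SNORA31 with library size only. These 20 were picked from the same data for their size, which makes this outcome likely. Among the alternative values of all tested entries, 898 kept their call or lack of one. A call was lost in 53 and gained in 68, and 6 changed direction with a call in either fit. The replicate block gave 47 altered entries, 21 up and 26 down. Same-numbered samples had deviations with correlations of -0.03, -0.09 and 0.02, so the numbers were not taken as pairs.

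The share of the snoRNA counts differed by 3.66 to 4.31 percentage points when each replicate was left out, by 5.73 with SNORA and SNORD entries only, by 5.45 without the snoRNA host entries, by 1.02 without SNORA52 and by 0.133 without SNORA52 and SNORA31. The removal of host entries and of both SNORAs was chosen after seeing the data. The share of all counts differed by 0.0533 to 0.122 percentage points when each replicate was left out, by 3.23 with microRNAs out of the denominator and by -0.109 without SNORA52. The shift of the log2 ratio of SNORA80 to SNORA80B ranged from -0.86 without RUNX1 replicate 3 to 0.0084 without RUNX1 replicate 1, and the shift of the log2 ratio of SNORA71D to SNORA71A from -0.21 without RUNX1 replicate 3 to 0.37 without RUNX1 replicate 1, with -0.0494 without control replicate 1. The cause of these changes was not tested. Control replicate 1 had the lowest depth, 1618248 counts.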
